A study of Homo sapiens and Mus musculus with 33 samples.

Results

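Of the 40266 peaks in the list of H3K18cr and H3K18ac peaks of HCT116 cells, 8316 (20.7%) were narrower than 10 kb and lay at least 5 kb from every gene interval of the HCT116 RNA-seq table. From that list, which MACS had called on ChIP signal, these intergenic peaks were taken by position and width, with no further use of a measured level. HCT116 is an established human colon carcinoma cell line, and the cells received either MS275 at 5 µM or its vehicle, DMSO, over 18 h. For each treatment there were 3 H3K18cr ChIP libraries, 3 H3K18ac ChIP libraries, 1 input library and 4 RNA-seq libraries, 22 of the 33 samples of the series. All groups are the same line, within each assay the treatments differ in the drug, and sodium butyrate, itself an HDAC inhibitor, was in the sonication buffer of both treatments. The methods call the RNA libraries biological replicates. For the ChIP libraries they speak of 2 replicates of H3K18cr, where the labels give 3 libraries per treatment, all used here, and which of these came from separate cultures is not given in the sources used here, so p-values measure the spread between these samples, which may be technical. The RNA of the cells held epithelial markers (EPCAM 278 to 448 CPM, read counts scaled to a common library size, and KRT8 1409 to 2471 CPM, over the 8 libraries), whereas of 5 markers of colon epithelium CDX1 was at 0 and VIL1, LGALS4 and CDH17 reached at most 1.45 CPM, with CDX2 at 14.0 to 27.8 CPM. Of 6 markers of fibroblasts, leukocytes and endothelium, 5 were under 1 CPM in every library and COL1A1 ran from 4.91 to 16.4 CPM, so that their summed level was 5.04 to 8.64 CPM in DMSO and 10.1 to 16.7 CPM in MS275.

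Peaks of histone acylation far from genes are often enhancers, stretches of DNA that bind transcription factors and act on promoters over a distance. Acetylation of lysine 18 of histone H3 (H3K18ac) marks active promoters and enhancers, and crotonylation of the same lysine (H3K18cr) places a longer acyl group, made from crotonyl-CoA, at the same position. Class I histone deacetylases (HDACs) remove both groups, and MS275 (entinostat) inhibits these enzymes. The number of ChIP-seq reads is set by the sequencing and not by the amount of a mark, so that, without a spiked-in standard, the reads show how a mark is distributed and not its total amount in the cell. By western blot the study reports more histone crotonylation in HCT116 cells after MS275, and by ChIP-qPCR more H3K18cr at the loci it tested. A fall or rise of a peak below is one of reads after scaling for library size, not of the amount of a mark.

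The sequences at the centre of a few of these peaks show the kinds of DNA the results turn on. Those printed are the central 300 bp, plus strand of GRCh38, of both peaks with the highest H3K18cr level in DMSO (named after the nearest genes, MKL1 and RP11-65J3.3), and, among the called peaks that averaged 50 scaled reads or more, of the one with the greatest rise in H3K18cr after MS275 (SHQ1) and the one with the greatest fall (C4BPA). Capitals mark matches to any of 9 motifs searched on both strands: AP-1 (TGANTCA), TCF/LEF (ATCAAAG), FOXA (TGTTTAC), TEAD (GGAATG), ETS (CCGGAAG), SP/KLF (GGGCGG), the zinc fingers of the GATA family, whose letters were AGATAA, and, by longer motifs, HNF4 and CTCF.
MKL1, chr22:40652176-40652475: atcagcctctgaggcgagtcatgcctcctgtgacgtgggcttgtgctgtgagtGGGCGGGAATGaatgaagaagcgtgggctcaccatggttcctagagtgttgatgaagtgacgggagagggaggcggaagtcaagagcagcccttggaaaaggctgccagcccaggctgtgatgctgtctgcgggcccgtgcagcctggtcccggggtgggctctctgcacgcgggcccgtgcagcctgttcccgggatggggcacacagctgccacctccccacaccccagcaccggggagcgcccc
RP11-65J3.3, chr9:129413326-129413625: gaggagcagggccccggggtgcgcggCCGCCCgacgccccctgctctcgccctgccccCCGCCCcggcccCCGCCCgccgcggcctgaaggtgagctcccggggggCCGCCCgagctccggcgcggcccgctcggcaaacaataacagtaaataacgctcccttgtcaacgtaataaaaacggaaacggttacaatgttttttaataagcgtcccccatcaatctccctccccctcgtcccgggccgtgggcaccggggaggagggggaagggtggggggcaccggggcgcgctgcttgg
SHQ1, chr3:72660301-72660600: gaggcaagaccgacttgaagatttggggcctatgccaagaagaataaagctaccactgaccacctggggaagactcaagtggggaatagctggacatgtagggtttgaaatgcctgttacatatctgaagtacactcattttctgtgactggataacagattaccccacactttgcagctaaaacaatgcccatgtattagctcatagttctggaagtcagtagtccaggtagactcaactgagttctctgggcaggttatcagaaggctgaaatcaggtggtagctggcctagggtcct
C4BPA, chr1:207153376-207153675: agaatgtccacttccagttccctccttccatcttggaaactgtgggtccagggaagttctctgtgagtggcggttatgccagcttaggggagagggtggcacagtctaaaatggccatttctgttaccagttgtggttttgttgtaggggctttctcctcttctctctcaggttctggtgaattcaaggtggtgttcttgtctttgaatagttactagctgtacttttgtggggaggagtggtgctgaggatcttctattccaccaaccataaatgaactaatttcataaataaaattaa
The window near MKL1 (GC content 65.3%) held 1 SP/KLF match and 1 TEAD match that overlap by a single base, and the window near RP11-65J3.3 (70.0% GC) held 4 SP/KLF matches on the minus strand. The windows near SHQ1 (46.7% GC) and C4BPA (44.3% GC) held none of these letters. A match is a run of letters and not a measured binding site.

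By sequence, the intergenic peaks resembled gene-body peaks and not promoters. Their GC content ran from 24.1% to 80.8% (median 45.3%), against medians of 54.5% over the 11646 promoter peaks (narrower than 10 kb, within 1 kb of a gene start) and 44.7% over the 14703 gene-body peaks (inside a gene, at least 5 kb from its start). The ratio of observed to expected CpG had a median of 0.18 in intergenic peaks, 0.19 in gene-body peaks and 0.62 in promoter peaks. Only 217 intergenic peaks (2.61%) reached a ratio of 0.6, a usual mark of CpG islands, against 54.6% of promoter peaks and 18.6% of all peaks.

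Motifs of factors that bind enhancers were more frequent in these windows, and motifs of CpG-rich promoters less frequent, than in promoter windows. AP-1, the dimer of FOS and JUN family proteins, had a match in 1637 intergenic windows (19.7%), against 5.70% of promoter, 18.9% of gene-body and 14.7% of all windows. TEAD, the DNA-binding partner of YAP, was matched in 20.2% of intergenic and 11.9% of promoter windows (17.1% of all), and GATA in 16.3% and 6.21% (13.1% of all). TCF/LEF, the nuclear end of Wnt signalling, was matched in 4.79% of intergenic and 1.76% of promoter windows (3.71% of all), and FOXA in 4.18% and 1.77% (3.59% of all). The order was the opposite for SP/KLF, found in 7.86% of intergenic and 54.9% of promoter windows (23.3% of all), and for ETS, found in 1.68% and 9.63% (4.07% of all). HNF4 was matched in 0.385% of intergenic windows (0.373% of all) and CTCF in 3 intergenic windows, 0.0361%, against 0.0447% of all. Gene-body windows had similar shares to intergenic ones for TEAD (19.0%), GATA (16.5%), TCF/LEF (4.58%), FOXA (4.57%), SP/KLF (9.98%) and ETS (1.58%). These shares were not tested, and the difference in GC content between the classes goes with them. Letters this short also match by chance, at a rate that was not computed.

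**Figure D1:**
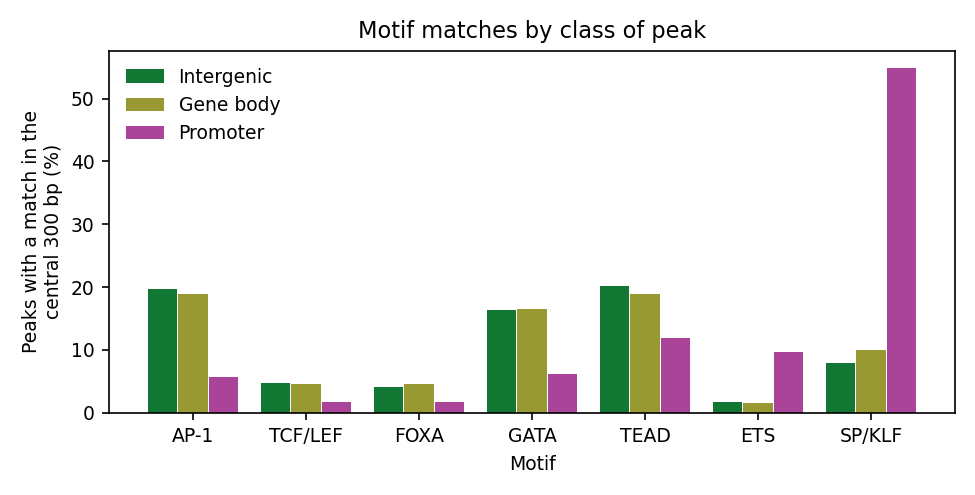
Share of peaks (%, vertical axis) whose central 300 bp held at least 1 match to each motif, for intergenic, gene-body and promoter peaks (bars). Intergenic and gene-body bars are close for each motif (19.7% and 18.9% for AP-1), while promoter bars are lower for AP-1 (5.70%) and higher for SP/KLF (54.9%).

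How far these peaks lay from genes depended on the gene table. The distance to the nearest gene of the deposited table had a median of 25583 bp, 6772 peaks (81.4%) were at least 10 kb away and 1020 were at least 100 kb away, with 4255 different nearest genes. In GENCODE 44, a larger annotation of the same build, 5939 peaks (71.4%) were at least 5 kb from every gene, whereas 1654 (19.9%) overlapped a gene, of which 1146 were in a long non-coding RNA, 282 in a protein-coding gene and 226 in a gene of another type. A GENCODE transcript start lay within 1 kb of 543 peaks (6.53%). The peak just inside the limit of 5 kb, chr7:75527551-75528300 at 5000 bp from HIP1, spans a GENCODE start of the non-coding transcript PMS2P3, and the one just outside, at 4999 bp from GJA5, was left out. The widest peak kept measured 9900 bp, and 179 peaks of 10 kb or more, the narrowest 10050 bp, were left out.

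In DMSO the median level of both marks over input was lower at intergenic peaks than at promoters and close to that of gene-body peaks. Between 94.4% and 98.4% of the intergenic peaks exceeded the input in each of the 12 ChIP libraries, which the calling of peaks on ChIP signal largely fixes. The median H3K18cr level over input, log2 of scaled ChIP reads over scaled input reads with 1 read added to each, was 0.99, 0.97 and 0.83 in the 3 DMSO libraries at intergenic peaks and 1.73, 1.65 and 1.43 at promoter peaks. For H3K18ac the medians were 0.73, 0.82 and 0.99 at intergenic peaks and 1.37, 1.59 and 2.01 at promoter peaks. The library medians of intergenic and promoter peaks did not overlap for either mark, while single peaks of both classes did. Gene-body medians were close to the intergenic ones, at 0.99, 0.96 and 0.84 for H3K18cr and 0.77, 0.85 and 1.02 for H3K18ac. With the DMSO libraries averaged, the intergenic median was 0.93 for H3K18cr and 0.85 for H3K18ac, and it moved to 0.68 and 0.62 with 10 reads added in place of 1. The median of reads per kb, after scaling, was 28.4 to 32.2 in the H3K18cr DMSO libraries and 16.1 in the DMSO input.

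No intergenic peak differed between the 2 marks in DMSO by limma on the deposited log2 values (0 of 7934 tested, with 0% of all 39389 peaks called, Benjamini-Hochberg adjusted p under 0.05). An unadjusted p under 0.05 was found at 438 intergenic peaks, edgeR called 28 (0.353%, 24 of them higher in H3K18cr) and DESeq2 called 8 (0.101%, 7 higher in H3K18cr), against 0.985% and 0.833% of all peaks, and the median difference of H3K18cr minus H3K18ac was 0.09 on the log2 scale. The count rested on DMSO replicate 3: it was 936 (11.8%, against 13.8% of all peaks), 898 of them higher in H3K18cr, without that replicate of both marks, and 4 without the H3K18cr one alone. The antibodies were used in different amounts, which cannot be told apart from a difference between the marks.

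The input at these peaks differed between chromosomes. At the 190 intergenic peaks on chromosome X the DMSO input had a median of 9.75 scaled reads per kb, against 15.4 to 17.4 on 20 other chromosomes and 19.0 and 19.1 on chromosomes 8 and 17. The H3K18cr level over input moved the opposite way, with a median of 1.72 on chromosome X, 0.68 on chromosome 8 and 0.79 on chromosome 17. The peaks with the highest input per kb were 300 bp at chr9:88141501-88141800 (47.8), 1350 bp at chr17:45583651-45585000 (44.4) and 300 bp at chr14:105619501-105619800 (43.5), and at the first and last of these the H3K18cr level was below input.

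After MS275, a larger share of the reads in peaks lay in the intergenic peaks, for both marks. In H3K18cr the share was 10.4%, 10.6% and 10.5% in the DMSO libraries (mean 10.5% ± 0.0855, SD, n = 3) and 12.3%, 12.4% and 12.1% in the MS275 libraries (12.3% ± 0.177, n = 3), 1.80 percentage points higher. In H3K18ac it was 10.3%, 9.99% and 9.29% in DMSO (9.88% ± 0.536) and 11.8%, 12.4% and 12.1% in MS275 (12.1% ± 0.308), 2.25 percentage points higher. Every MS275 library was above every DMSO library of its mark and below both inputs, whose shares were 13.2% and 13.4%. The exact two-sided permutation test gave p = 0.1 for each mark, which is the smallest p that 3 against 3 libraries allow.

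**Figure D2:**
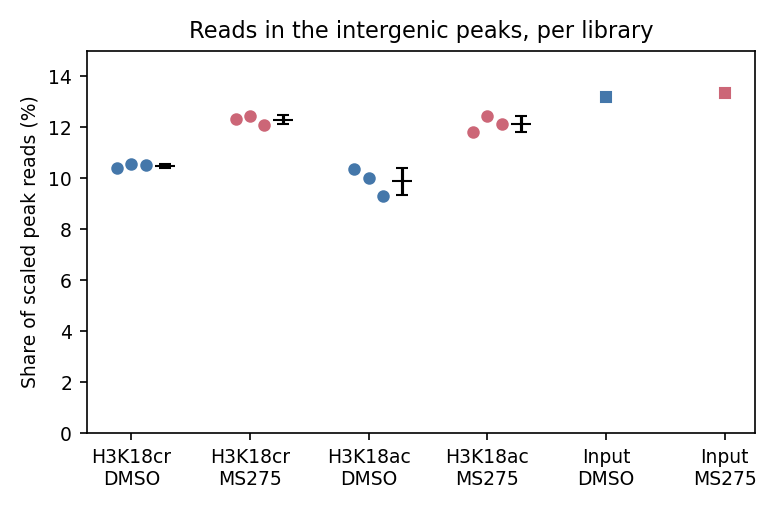
Share of the scaled reads in all peaks that fell in the 8316 intergenic peaks (%, vertical axis from 0), 1 point per library, with the mean and SD of 3 ChIP libraries as a cross with bars and single inputs as squares. MS275 libraries (11.8% to 12.4%) sit above DMSO libraries (9.29% to 10.6%) and below the inputs (13.2% and 13.4%).

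The share of gene-body peaks was higher after MS275 as well, that of promoter peaks was lower, and the summed scaled reads of the intergenic peaks overlapped between treatments. Gene-body peaks held 21.9% ± 0.317 of H3K18cr peak reads in DMSO and 24.9% ± 0.343 in MS275, and 21.3% ± 1.10 and 24.6% ± 0.645 of H3K18ac peak reads (exact permutation p = 0.1 each, n = 3). Promoter peaks held 38.8% ± 0.380 of H3K18cr peak reads in DMSO and 33.9% ± 0.118 in MS275 (4.84 percentage points lower), and 41.7% ± 1.56 and 35.1% ± 1.12 of H3K18ac peak reads, with p = 0.1 in the same exact permutation test, the smallest possible. Summed over the intergenic peaks, the scaled H3K18cr reads were 595870, 581884 and 519584 in DMSO and 489564, 485298 and 524560 in MS275, and the groups overlapped (exact permutation p = 0.2). The H3K18ac sums were 461719, 517007 and 612848 in DMSO and 535438, 458688 and 438751 in MS275, and overlapped as well (exact permutation p = 0.4). Over all peaks the H3K18cr sums were 4946111 to 5730094 in DMSO and 3902023 to 4338122 in MS275, and the H3K18ac sums, which overlapped, were 3612598 to 4531232 in MS275 and 4462392 to 6594160 in DMSO. The gap between the median levels over input of promoter and intergenic peaks was 0.67 in DMSO and 0.24 in MS275 for H3K18cr, and 0.81 and 0.30 for H3K18ac, on the log2 scale (p = 0.1 each, exact permutation test), with the widest gap, 1.02, in DMSO replicate 3 of H3K18ac.

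Tested peak by peak with limma on the deposited scaling, few intergenic peaks changed in H3K18cr, and nearly all that did fell. Of 7954 tested, 523 fell (6.58%) and 23 rose, where 23.4% of all 39399 tested peaks fell and 0.236% rose (Benjamini-Hochberg adjusted p under 0.05). The falls ran from -1.46 to -0.43 on the log2 scale (median -0.64), and they were in peaks with many reads: a median of 137 scaled reads and a width of 3000 bp, against 41.2 reads and 1350 bp over all intergenic peaks tested. The rises, 0.51 to 1.61, were in peaks with a median of 31.8 reads. The median change over intergenic peaks was -0.05, against -0.20 over all peaks, -0.09 over gene-body peaks and -0.55 over promoter peaks.

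Whether falls or rises were more numerous differed between the fits, while the median of the intergenic peaks kept its place relative to all peaks. With the TMM factors of edgeR on the recovered reads, 276 intergenic peaks rose in H3K18cr and 155 fell (2.33% and 11.5% of all peaks), and the medians moved to 0.19 over intergenic and 0.04 over all peaks. The share of calls that were rises was 4.21% in limma with the deposited scaling and 64.0% in edgeR with TMM, whereas the intergenic median stood 0.15 above the median of all peaks in both. DESeq2, with medians of 0.20 and 0.05, called 31 rises and 93 falls (0.322% and 8.27% of all peaks), so that falls outnumbered rises there. The edgeR and limma fits differ in the test as well as in the scaling, and their parts were not told apart. All 155 falls by edgeR were among the 523 falls by limma, and all 23 rises by limma were among the 276 by edgeR. Of the 155 that fell in both, 50 were within 1 kb of a GENCODE transcript start and 88 at least 5 kb from every GENCODE gene. The count also rested on single libraries: it was 319, 330 and 921 without DMSO replicate 1, 2 or 3, and 258 and 242 without MS275 replicate 1 or 2, mostly falls each time.

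In H3K18ac limma called fewer peaks than in H3K18cr, again mostly falls, whereas edgeR and DESeq2 called more. By limma 211 of 7992 tested intergenic peaks fell (2.64%) and 47 rose, where 16.6% of all 39479 tested peaks fell and 0.261% rose. The falls ran from -1.61 to -0.66 (median -0.84), and the median change was -0.01 over intergenic, -0.19 over all and -0.60 over promoter peaks. With TMM 583 rose and 195 fell (4.81% and 16.8% of all peaks), the intergenic median was 0.24 and that of all peaks 0.06, and 165 falls and 46 rises were called in both fits. DESeq2 called 92 rises and 130 falls (0.955% and 13.2% of all peaks). With the replicate number as a block, limma called 39, of which 35 were falls. The count was 491, 99 and 145 without DMSO replicate 1, 2 or 3, and 45 and 61 without MS275 replicate 2 or 3, and in each case more peaks fell than rose.

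Most falls of H3K18ac at the intergenic peaks were at peaks where H3K18cr fell as well, whereas rises were seldom shared. Falls in both marks were called at 163 peaks, 31.2% of the H3K18cr falls and 77.3% of the H3K18ac falls, where over all peaks the shares were 62.1% and 87.6%. A rise in both was called at 1 peak, of 23 rises in H3K18cr and 47 in H3K18ac. The overlap of rises over all peaks was not counted. Of the 523 peaks that fell in H3K18cr, 508 had a negative H3K18ac change (median -0.54), in libraries made with the other antibody. The 23 peaks that rose in H3K18cr had a median H3K18ac change of 0.11 over the 22 tested, and the 47 that rose in H3K18ac a median H3K18cr change of 0.12 over the 44 tested. A difference between the marks in the MS275 change was called at 0 of 8302 intergenic peaks (0% of all 40237) by the interaction term in limma and at 0 by edgeR, with unadjusted p under 0.05 at 212 and 254 peaks, and the median difference was -0.03.

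The change was graded by the level of the peak before treatment. To keep the level and the change in different ChIP libraries, peaks were binned by the DMSO level over input of one mark and the change was read in the other, although both levels share 1 input. H3K18cr changed by a median of 0.04 in the 1506 intergenic peaks with an H3K18ac level of 0 to 0.5, by -0.02 in the 3421 at 0.5 to 1, by -0.12 in the 2004 at 1 to 1.5, by -0.32 in the 699 at 1.5 to 2 and by -0.59 in the 239 above 2. H3K18ac changed by a median of 0.07, 0.04, -0.06, -0.28 and -0.36 across the same bins of the H3K18cr level. In each of these 5 bins promoter peaks were lower (the 85 and 39 intergenic peaks with a level below 0 had medians of 0.12 and 0.25, against 0.24 and 0.17 in 14 and 4 promoter peaks): their H3K18cr medians were -0.03, -0.16, -0.38, -0.58 and -0.79, and their H3K18ac medians 0.00, -0.14, -0.42, -0.68 and -0.91. Gene-body medians were below the intergenic ones in these bins, at 0.01, -0.04, -0.16, -0.36 and -0.65 for H3K18cr and 0.03, -0.03, -0.15, -0.38 and -0.64 for H3K18ac. These medians are a description with no test, on the deposited scaling. Input was not subtracted from the reads in the change, so peaks near input had less room to fall. Binning by the other mark does not remove this, and its part in the grading was not tested. In the top bin 111 of 239 intergenic peaks fell in H3K18cr by limma, against 3420 of 3726 promoter peaks. A call also depends on the reads of a peak, which the bins do not match. Promoter peaks were wider (median 2550 bp over the class, against 1350 bp), so these counts do not compare the classes at equal power.

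**Figure D3:**
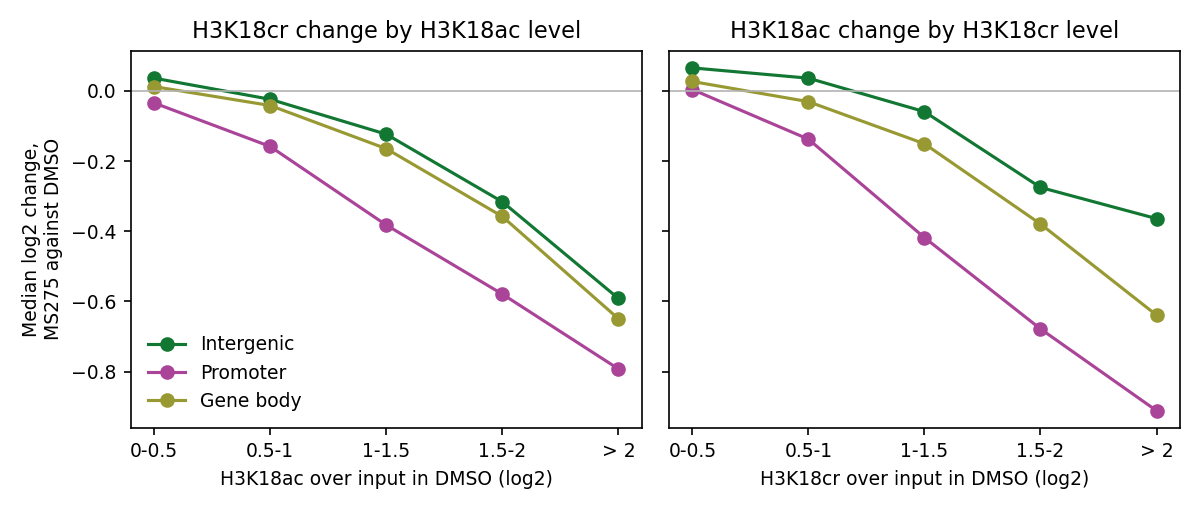
Median log2 change after MS275 (vertical axis) of H3K18cr by H3K18ac level (left) and of H3K18ac by H3K18cr level (right), with the level over input in DMSO in 5 bins on the horizontal axis, for intergenic, promoter and gene-body peaks. The medians fall with the level in each class, and in the highest bin the intergenic median is -0.59 for H3K18cr and -0.36 for H3K18ac, above the promoter medians of -0.79 and -0.91.

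Intergenic peaks with features of promoters fell more often than other intergenic peaks. Among the 217 with a CpG ratio of at least 0.6, 81 of 214 tested (37.9%) fell in H3K18cr and 52 of 212 (24.5%) in H3K18ac, with median changes of -0.44 and -0.39, against 5.71% and 2.04% of the others. Over all peaks 23.4% fell in H3K18cr and 16.6% in H3K18ac. Near a GENCODE transcript start 109 of 537 (20.3%) fell in H3K18cr and 62 (11.6%) in H3K18ac, both below those shares, whereas at least 5 kb from every GENCODE gene 321 of 5649 (5.68%) and 116 of 5684 (2.04%) did. Windows with an SP/KLF match belonged to peaks that fell in 16.0% of cases in H3K18cr, against 5.74% without one, and the shares were 17.04% and 6.39% for ETS and 6.81% and 6.52% for AP-1. In H3K18ac the shares with and without a match were 7.76% and 2.19% for SP/KLF, 8.09% and 2.55% for ETS and 1.76% and 2.86% for AP-1. Peaks with a high CpG ratio also had more signal, a median H3K18cr level of 26.9 scaled reads per kb above input against 14.7 for the others. Neither the differences between these shares nor the part of level in them was tested.

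The share of falls was highest in the bin nearest to a gene for both marks, a description with no test. In H3K18cr it was 8.91% of the tested peaks at 5 to 10 kb, 7.07% at 10 to 25 kb, 5.67% at 25 to 50 kb, 5.42% at 50 to 100 kb and 4.73% beyond 100 kb, and in H3K18ac 4.11%, 2.86%, 2.28%, 1.57% and 1.79%. Over the same bins the median GC content went from 47.2% to 41.6% and the median width from 1500 to 1050 bp, while AP-1 matches stayed between 18.9% and 20.2%.

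The 5 intergenic peaks with the highest H3K18cr level, the mean scaled DMSO reads less input per kb, all fell after MS275. These peaks were chosen by the same DMSO libraries that enter the H3K18cr change. The H3K18ac values come from other ChIP libraries, but the input is labelled for both marks. Whether the ChIPs of both marks shared chromatin is not given in the sources used here. The H3K18ac falls may therefore not be free of the choice either. The highest lay 14199 bp upstream of MKL1, a coactivator of serum response factor, at chr22:40650901-40653750, in no GENCODE gene. Its H3K18cr reads were 383, 356 and 343 in DMSO and 147, 156 and 171 in MS275, with inputs of 44.3 and 62.3. Its H3K18ac reads were 319, 368 and 559 in DMSO and 187, 129 and 151 in MS275, and neither mark's groups overlapped. The log2 change was -1.19 ± 0.16 (SE) in H3K18cr and -1.39 ± 0.25 in H3K18ac (limma, Benjamini-Hochberg adjusted p = 1.82e-05 and 2.33e-05).

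After it came the peak 14552 bp downstream of RP11-65J3.3, a non-coding transcript, at chr9:129410851-129416100. H3K18cr reads there were 707, 678 and 605 in DMSO and 253, 276 and 334 in MS275, and H3K18ac reads 498, 701 and 816 and then 332, 275 and 267. The changes were -1.21 ± 0.16 and -1.18 ± 0.25, again with no overlap of the groups. The next, at chr22:41020651-41023950, was 47342 bp downstream of RBX1, the RING subunit of cullin ubiquitin ligases, and changed by -0.84 ± 0.16 in H3K18cr and -0.97 ± 0.25 in H3K18ac. Another, 8250 bp wide at chr12:12867451-12875700, was 15082 bp upstream of GPRC5A, an orphan receptor induced by retinoic acid, and overlaps the processed pseudogene RPL13AP20. Its H3K18cr reads were 925, 916 and 1154 in DMSO and 424, 425 and 711 in MS275, and its changes -0.98 ± 0.17 and -0.99 ± 0.24. The last of them, 55244 bp upstream of CHST15, a chondroitin sulfotransferase, at chr10:124148851-124154400, changed by -0.80 ± 0.15 and -0.79 ± 0.25. All 5 kept their H3K18cr call without any single library (adjusted p at most 0.00796, limma), although without replicate 1 of both treatments that of CHST15 had an adjusted p of 0.0691 (limma). In H3K18ac the call was lost at CHST15 without replicate 2 or 3 of DMSO or of MS275, at RBX1 without MS275 replicate 2 or 3 and at GPRC5A without MS275 replicate 3 (adjusted p up to 0.197, limma). Without replicate 2 of both treatments the H3K18ac call was lost at all 5 (adjusted p from 0.461 to 0.587, limma), at log2 changes of -1.33 to -0.76, and without replicate 3 of both it was lost at CHST15, RBX1 and GPRC5A (0.375, 0.194 and 0.102, limma), while a block for the replicate number ended it at 4, all but MKL1 (0.0524 to 0.213, limma).

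**Figure D4:**
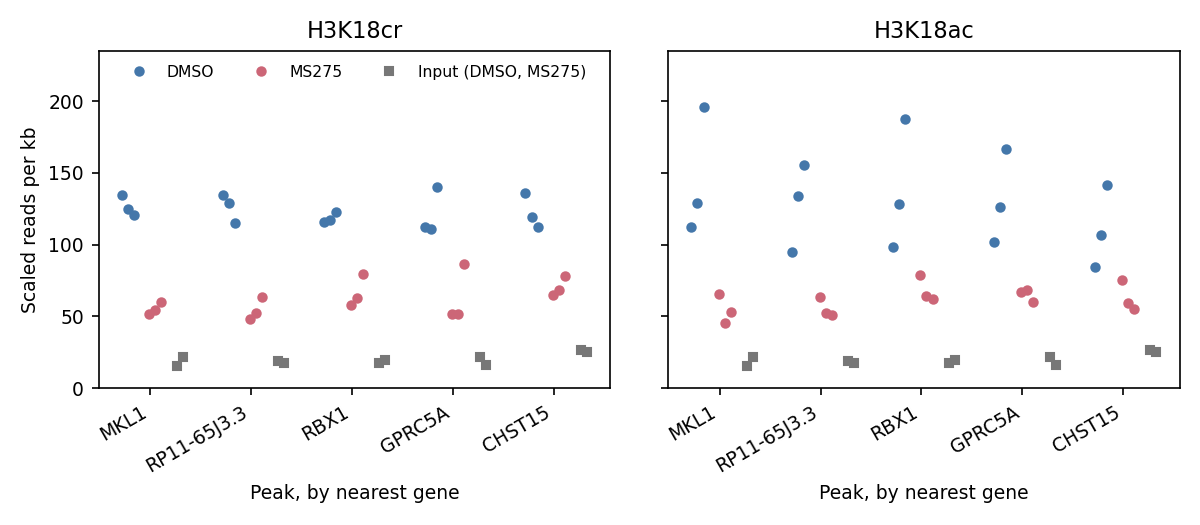
Scaled reads per kb (vertical axis from 0) at the 5 intergenic peaks with the highest H3K18cr level, named by nearest gene, for H3K18cr (left) and H3K18ac (right), 1 point per library in DMSO and MS275 and squares for the input of each treatment. At each of the 5 peaks and in both marks every MS275 point lies below every DMSO point and above the inputs.

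The greatest falls in H3K18cr, taken where the 6 libraries averaged 50 scaled reads or more, were single peaks beside genes of varied kinds. The peak 7879 bp downstream of C4BPA, which encodes a complement regulator of blood plasma, had 81.0, 99.6 and 77.3 H3K18cr reads in DMSO and 30.4, 31.2 and 49.1 in MS275, a change of -1.25 ± 0.22 (adjusted p = 0.000133, limma with Benjamini-Hochberg adjustment). At chrX:45477751-45481650, 23738 bp upstream of the non-coding gene LINC01204, reads were 218, 199 and 181 in DMSO and 72.0, 92.1 and 91.2 in MS275 (change -1.23 ± 0.18). Both were without overlap of the groups, and H3K18ac changed by -0.85 ± 0.25 and -1.24 ± 0.25 at them. The peak at chr1:148263001-148265700 spans a GENCODE start of RNVU1-22, a variant of the spliceosomal small nuclear RNA, and changed by -1.23 ± 0.20 in H3K18cr and -1.37 ± 0.25 in H3K18ac. The peak near RP11-65J3.3 was among the 5 as well, and the last, 8989 bp upstream of the zinc finger gene ZNF689 at chr16:30633001-30636000, spans a GENCODE start of a non-coding RNA and changed by -1.20 ± 0.18 and -1.08 ± 0.25. These 5 calls held without any single library (adjusted p at most 0.00284, limma).

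The greatest falls in H3K18ac, under the same limit of 50 scaled reads, were mostly at GENCODE transcript starts outside the gene intervals of the deposited table. The peak 8518 bp upstream of RBAK-RBAKDN (chr7:4973851-4975200) spans a start of the non-coding RNF216P1 and had 87.2, 112 and 160 H3K18ac reads in DMSO and 58.4, 31.3 and 33.5 in MS275, a change of -1.55 ± 0.25. The peak 9070 bp upstream of TMEM27 (chrX:15674101-15676500) spans a start of a protein-coding gene and changed by -1.53 ± 0.25, and the peak 32587 bp downstream of RABGEF1 (chr7:66844051-66846000), at a start of the non-coding GTF2IRD1P1, by -1.51 ± 0.25. H3K18cr changed by -0.85, -1.13 and -1.11 at these peaks. Their CpG ratios were 0.89, 0.71 and 0.65, and the peaks near MKL1 and at RNVU1-22 completed the list. All 5 kept the call without any single H3K18ac library (adjusted p at most 0.0154, limma) and with a block for the number (at most 0.0281, limma), but all were lost without replicate 2 of both treatments (0.159 to 0.461, limma). Genes with near-identical copies, as RNVU1-22, PMS2P3 and GTF2IRD1P1 have, are uncertain places for reads, although the methods kept reads of high mapping quality.

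By limma on the deposited scaling, rises at peaks with 50 reads or more were few and small. They were 5 of 466 calls in H3K18cr and 3 of 169 in H3K18ac. At any number of reads, limma called a rise at 0.236% and 0.261% of all peaks. With TMM, edgeR called 276 and 583 rises at the intergenic peaks. Of the 5 by limma in H3K18cr, the greatest, 87777 bp downstream of SHQ1, an assembly factor of small nucleolar ribonucleoproteins, at chr3:72659401-72661500, had 44, 49.1 and 35.6 H3K18cr reads in DMSO and 78.7, 85.0 and 60.3 in MS275, without overlap. Its change was 0.80 ± 0.21 (adjusted p = 0.00547, limma), its DMSO level was at that of the input (44.3 reads) and its H3K18ac change was 0.04. The call was lost without MS275 replicate 2 (adjusted p = 0.0547, limma). Further rises were 64438 bp downstream of TMEM130 (0.60), 28753 bp upstream of RP11-277J6.3 (0.58) and 86281 bp upstream of the corepressor gene CTBP2 (0.51). Leaving out 1 library ended the call in 5, 4 and 6 of 6 cases at these peaks, respectively. In H3K18ac the rises were 0.77 on chromosome 10 near RP11-472N13.3, 0.73 on chromosome 4 near RP11-8L2.1 and 0.66 on chromosome 3 near AC116035.1, and leaving out 1 library ended the call in 3, 4 and 5 of 6 cases, and the block ended all 3 (adjusted p = 0.0992, 0.126 and 0.170, limma). In DMSO their H3K18ac level was between -1.22 and 6.12 scaled reads per kb above input.

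Many intergenic peaks stood in groups. When peaks with gaps of at most 12.5 kb were joined, the 8316 peaks made 5417 groups, 3876 of a single peak and 160 of at least 5 peaks (1033 peaks), and 4440 peaks (53.4%) had at least 1 neighbour in their group. The level over input was alike in single peaks and in peaks of groups of at least 5 (medians 0.92 and 0.95 for H3K18cr, 0.87 and 0.83 for H3K18ac), and AP-1 matches were in 22.01% and 14.6% of their windows.

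The largest group, 17 peaks over chr1:202026151-202115250, began 8963 bp downstream of ELF3, an ETS factor of epithelial cells. For 9 of the peaks ELF3 was the nearest gene and for the other 8 GPR37L1, an orphan receptor. The summed H3K18cr reads of the group were 2689, 2750 and 2831 in DMSO and 2174, 2119 and 2684 in MS275, 2.79 times the input in DMSO. H3K18ac sums were 2177, 2808 and 3087 in DMSO and 2508, 2090 and 2050 in MS275, and these overlapped while those of H3K18cr did not. The peak with the highest H3K18cr level over input (2.02) changed by -0.65 in H3K18ac and the one with the lowest (0.39) by 0.20, a description in the mark whose ChIP libraries did not set the level. Falls were called at 2 of the 17 peaks in H3K18cr, those 10.9 to 13.9 kb (-0.50) and 86.5 to 93.0 kb (-0.59) past the end of ELF3, and at 0 in H3K18ac by limma.

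**Figure D5:**
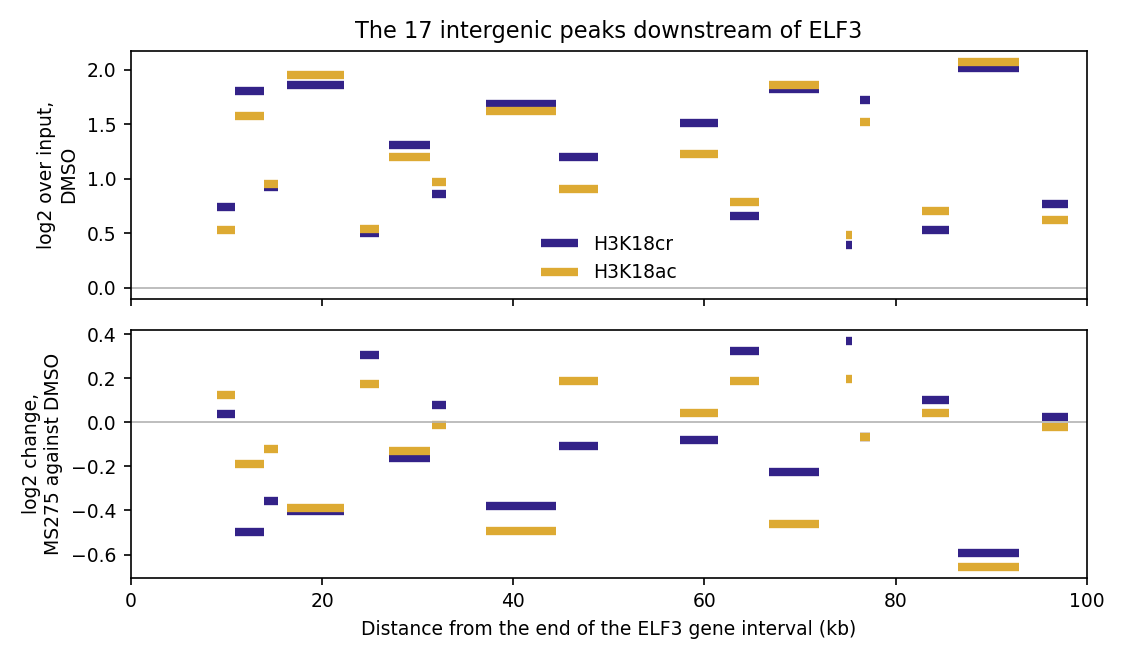
The 17 intergenic peaks downstream of ELF3, drawn to scale as bars along the distance from the end of the ELF3 gene interval (kb, horizontal axis): above, the log2 level over input in DMSO for H3K18cr and H3K18ac, and below, the log2 change after MS275. The peak at 86.5 to 93.0 kb is highest in both marks (2.02 and 2.07) and changed most (-0.59 and -0.65).

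The other large groups held 1 to 3 falls each among 12 to 14 tested peaks in H3K18cr, and 0 or 1 among 11 to 14 in H3K18ac. Over all peaks 23.4% and 16.6% fell, and over the intergenic peaks 6.58% and 2.64%. With so few peaks in a group, its share was not compared with these. A group of 15 peaks over chrX:45776701-45824550, whose nearest genes include the microRNA host gene MIR222HG, had a median H3K18cr change of -0.37 with 2 falls among 12 tested, and summed H3K18cr reads of 539, 483 and 328 in DMSO and 337, 327 and 314 in MS275. A group of 13 peaks over chr7:121510801-121562550, with the closest gene 80784 bp away and FAM3C, a secreted protein, as the nearest gene of some, had a median of -0.43 with 3 falls among 12 tested, and summed reads of 1559, 1616 and 1171 in DMSO and 930, 858 and 1059 in MS275. The sums did not overlap between treatments in the group near FAM3C and did in the group on chromosome X. A group of 14 peaks over chr5:93076051-93148650 near CTD-2091N23.1 had a median of -0.22 with 1 fall, and its sums overlapped, 1549 to 1729 in DMSO and 1266 to 1681 in MS275. A group of 14 over chr6:26295001-26355750 between the histone gene HIST1H4H and BTN3A2, a butyrophilin, had a median of -0.12 with 2 falls, and all its peaks lay inside a single unnamed GENCODE gene.

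Of the genes nearest to the intergenic peaks, 1 changed in RNA without pairing of the replicates. PAG1, a membrane adaptor that recruits the kinase CSK, had 2.41, 2.21, 1.99 and 3.02 CPM in DMSO and 14.9, 17.6, 12.5 and 18.7 CPM in MS275, a log2 change of 2.72 ± 0.25 (edgeR quasi-likelihood test, Benjamini-Hochberg adjusted p = 0.00520). It was the only gene called among the 1946 nearest genes tested and among all 14961 tested (0.00668%), and DESeq2 called 37 of the nearest genes (1.90%, 30 of them higher), where it called 0.936% of all genes. Without replicate 1, 2 or 4 the adjusted p of PAG1 was 0.439, 0.425 or 0.125 in edgeR, at log2 changes of 2.75, 2.62 and 2.76. The peak nearest to it, chr8:80928751-80932650 at 35160 bp downstream, had 129, 109 and 131 H3K18cr reads in DMSO and 116, 136 and 137 in MS275, and changed by 0.08 in H3K18cr and 0.19 in H3K18ac, neither of which passed the test in limma, while edgeR gave the H3K18ac change as 0.44 (adjusted p = 0.0384).

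With the replicate number as a block, which pairs the RNA libraries, 380 of the 1946 nearest genes changed (19.5%, 292 higher and 88 lower), where 14.4% of all 14961 genes did (1171 higher and 980 lower). The median change was 0.12 over the nearest genes and 0.01 over all genes in this fit. Around peaks that fell in H3K18cr, 45 of 259 nearest genes changed (27 higher, 18 lower), with a median of 0.05, and around peaks that fell in H3K18ac 19 of 117 (9 higher, 10 lower), with a median of 0.02. These counts were not tested against those of all nearest genes. Around groups of at least 5 peaks, 31 of 106 changed, 26 of them higher, with a median of 0.11. PAG1 changed with the block as well, by 2.72 ± 0.20 (edgeR with block, adjusted p = 4.95e-05). Leaving PAG1 aside, the tested genes nearest to the intergenic peaks named above numbered 16, and 6 of them changed with the block in edgeR. GPRC5A was higher by 0.41 ± 0.06 (251 to 349 CPM in DMSO and 339 to 441 CPM in MS275), ELF3 by 0.41 ± 0.07, MKL1 by 0.38 ± 0.12 and HIP1 by 0.37 ± 0.09, and the changes of ZNF689 and RBX1 were -0.87 ± 0.15 and -0.44 ± 0.09 (edgeR with block, adjusted p = 0.00129, 0.00267, 0.0498, 0.0221, 0.00265 and 0.00868). ELF3 had 99.1, 109, 112 and 105 CPM in DMSO and 127, 141, 148 and 150 CPM in MS275, and ZNF689 21.8, 18.6, 25.4 and 19.0 and then 13.4, 11.1, 10.8 and 10.8 CPM, without overlap of the groups in either gene. C4BPA was at 0 counts in all 8 libraries.

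A list of 26 colon transcription factors and Wnt targets was looked up beside the peaks. Of these genes 19 had an intergenic peak within 100 kb, 80 in all, with 17 at ELF3, 10 at CD44, 9 at KLF5, 7 at ETS2 and 5 at CCND1. In H3K18cr 9 of the 77 tested peaks fell and 0 rose, and in H3K18ac 2 of 80 fell and 0 rose (limma, counts of all peaks above). RNA was tested for 22 of the genes, 0 were called by edgeR without the block and 12 with it, 10 higher and 2 lower, where 14.4% of all genes were called with the block. The median change without the block was 0.30 over the list and 0.01 over all genes. The Wnt target AXIN2 was higher by 0.75 ± 0.19 with 4 intergenic peaks in reach, EPHB2, a receptor of the crypt base, by 0.79 ± 0.09 with 3, and SOX9, a factor of crypt stem cells, by 0.52 ± 0.07 with 0 (adjusted p = 0.0184, 0.000344 and 0.000646, edgeR with block). CDX2, the intestinal homeobox factor, and FOSL1, an AP-1 subunit, were lower, with changes of -0.44 ± 0.13 and -0.41 ± 0.13 (edgeR with block, adjusted p = 0.0442 and 0.04999). Other Wnt genes of the list were not called: MYC, CCND1 and TCF7L2 changed by 0.10 ± 0.06, -0.07 ± 0.06 and 0.15 ± 0.07 (edgeR with block). ASCL2 was at 0 CPM in every library, and LGR5 reached at most 0.266 CPM. CD44, whose 10 peaks included 1 fall in H3K18cr, changed by 0.09 ± 0.07 (598 to 898 CPM in DMSO and 525 to 978 CPM in MS275), which did not pass the test.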

How the data were processed

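The members and lists were chosen with earlier results of these data known. Per the methods, the ChIP-seq reads were trimmed (Trim Galore) and aligned by Bowtie2 to GRCh38, those of low mapping quality and duplicates were dropped, and SeqMonk served to call peaks by its MACS method and to count reads. The deposited ChIP values are log2 of read counts that the authors scaled to the largest library (factors 1 to 1.65) over 1 peak list for all libraries, in which a peak without reads was given a value just below that of 1 read. Whether libraries were pooled to call peaks is not given in the sources used here. Dividing by the scale factor recovered whole reads for 100% of values by the check used, 2236551 to 5730094 per ChIP library and 1374609 and 1550122 per input. Peaks without reads were few (52 in the MS275 input, the most of any library). How they entered this check, and the tolerance for a whole number, are not stated here. The deposited RNA table holds raw read counts per gene, as the authors deposited them (35608533 to 53415604 per library). Use of strand is stated for the kit but not for the counting.

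MS275 was compared with DMSO across all peaks with at least 10 reads in at least 3 libraries by limma 3.58.1 on the log2 values, with edgeR 4.0.16 and DESeq2 1.42.0 on recovered reads as alternatives (R 4.3.3). RNA was tested across all genes with edgeR's quasi-likelihood test after filterByExpr. P-values were adjusted by the Benjamini-Hochberg method over all features, a call is an adjusted p under 0.05, and standard errors are those of the log2 change. Groups came from the sample labels. In the RNA data, deviations of libraries with the same replicate number from their group means correlated at 0.48, 0.33, 0.70 and 0.72, so the number was taken to pair them (DMSO replicate 2 correlated better, at 0.44, with MS275 replicate 4), and values with the number as a block are given beside the unpaired ones. The peaks named are the 5 with the highest H3K18cr level, the 5 greatest rises and falls of each mark with a mean of at least 50 scaled reads, the 5 largest groups, the 3 with the highest input and those at the limits of the choice, and the genes named are the ones nearest to them and a list of 26 genes. Rises and falls had to pass the test. PAG1 was chosen after its values were seen, as the 1 gene called. One of the rises in H3K18cr is not reported here. Coordinates are 1-based on GRCh38, and sequences and GENCODE 44 genes are from the reference of the same build, in which 20583 of 35805 gene names of the deposited table were found, 96.1% of them starting within 10 kb. The tests were checked on simulated counts. The number of reads limits the precision of single peaks.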

Additional observations from a re-analysis of the deposited data

Results flagged for a closer look

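Among 76 groups of 4 RNA libraries of the genes named, 2 held a library far from the other 3 by Dixon's test at the 95% level, where chance gives about 1 in 20. MIR222HG, nearest to the group of 15 peaks on chromosome X, had its highest DMSO value, 3.96 CPM, in replicate 3, against 0.179 to 0.781 CPM in the others (gap over range 0.841). ZNF689 had its highest MS275 value, 13.4 CPM, in replicate 1, against 10.8 to 11.1 CPM in the others (0.885), and all 4 values were below the lowest in DMSO, 18.6 CPM.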

How the results depend on the processing

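The rise of the intergenic share held its direction under every alternative run: 1.33 to 2.44 percentage points in H3K18cr and 1.65 to 3.08 in H3K18ac. H3K18cr calls numbered 546 by limma, 431 by edgeR (276 rises, so the direction reversed), 124 by DESeq2 (31 rises) and 339 at least 5 kb from every GENCODE gene. H3K18ac calls numbered 258, and 778 by edgeR (583 rises, reversed), 222 by DESeq2 (92 rises) and 151 far from GENCODE genes. The alternatives that leave out single libraries or peaks near a GENCODE start were chosen after seeing the data. The first gave 242 to 921 calls for H3K18cr and 45 to 491 for H3K18ac, the second 437 and 193. Leaving out a replicate number of both treatments gave 75 to 1386 calls for H3K18cr and 0 to 787 for H3K18ac, the 0 without replicate 2, when 319 peaks had an unadjusted p under 0.05 by limma. For H3K18cr against H3K18ac, 0 calls became 28 by edgeR, 8 by DESeq2, 4 without H3K18cr DMSO replicate 3, and 0 to 936 without a replicate number. With 10 reads added, the level over input was 0.68 in place of 0.93 (H3K18cr) and 0.62 in place of 0.85 (H3K18ac). For RNA, 1 call became 37 by DESeq2, 5 with at least 1 count, 380 with the replicate block and 0 to 3 without a replicate number (3 without replicate 3, of which 2 were lower, so the balance reversed). The causes of these shifts were not tested. The values of the named peaks reversed in 0 refits, kept the call in 257 and lost it in 77, of which 17 were without replicate 2. The DESeq2 refit entered for 22 of these 26 values, and not for the H3K18cr changes near C4BPA, SHQ1 and TMEM130.

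The study tested some of its ChIP values in pairs, but the labels do not say what a ChIP replicate number marks: same-number correlations of deviations were 0.11, 0.08 and 0.24 in H3K18cr and -0.21, 0.05 and -0.14 in H3K18ac, and not every library correlated best with its own number. With the replicate block H3K18cr had 729 calls and H3K18ac 39, the exact sign-flip test of the shares gave p = 0.25, the smallest for 3 pairs, and the block changed no call of H3K18cr against H3K18ac or of the difference between marks.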
